A study of Mus musculus with 2 samples.

Results

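The 5 genes described here are Zfp352, Tmem92, AF067061, Tdpoz3 and E330034L11Rik. They were taken as a set of markers of the 2-cell-like (2C-like) state of mouse embryonic stem cells (mESC). The levels of E330034L11Rik did not follow that state in these data, as described further on. The 5 genes were found by their symbols in the feature table, where all were present among 55415 features. They were chosen with earlier results of these data known. The data are 2 single-cell transcriptome libraries of a mESC line that carries GFP under the promoter of MERVL and a far-red histone label, H2B-mIFP, for following cells. The first is labelled MERVL GFP positive and the other MERVL GFP negative. Both come from the same reporter line, no treatment is named for either, and the labels do not say by what sort or gate the GFP groups were made. The reporter is read as RNA here, as counts of the GFP transcript, and marks activity of the MERVL promoter in the transgene and not of any of the 5 genes.

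MERVL is an endogenous retrovirus whose long terminal repeats act as promoters when the mouse embryo begins to transcribe its own genome. In mESC cultures a small, changing fraction of cells switches the same repeats on. The Zscan4 family of zinc finger genes and genes such as Zfp352 come on with them, and several such genes are transcribed from or near MERVL-type repeats. The Zscan4 family and the MERVL reporter are the usual readouts of the state, and cells can carry either without the other. Of the 5 genes, Zfp352 encodes a C2H2 zinc finger protein, Tdpoz3 a protein with TRAF and POZ domains of a family known from early embryos, and Tmem92 a small transmembrane protein. AF067061 is a protein-coding gene without an assigned role.

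In the GRCm38 assembly with GENCODE M21 gene models, Zfp352 lies at chr4:90218820-90225702 on the plus strand with 3 exons. AF067061 lies at chr13:120263114-120264517 on the plus strand with 3 exons, and Tmem92 at chr11:94777217-94782703 on the minus strand with 9 distinct exons. Tdpoz3 is a gene of 1 exon at chr3:93826020-93827117 on the plus strand, one of a family of near-identical copies, so that reads of its relatives may be split among them. E330034L11Rik is a model of 1 exon at chr3:95639304-95641045 on the plus strand in the TEC class of the annotation, which holds transcribed regions that still await experimental evidence of a gene.

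RefSeq promoter sequences (GRCm38.p6, the 250 bases before the start) were given for 2 of the 5 genes, Zfp352 and AF067061, and not for Tmem92, Tdpoz3 and E330034L11Rik. They are shown because they were the ones given. Both sequences hold copies of TAATCC, the core recognised by bicoid-type homeodomain proteins, and no link between these copies and the levels of the genes was tested. The Zfp352 window is chr4:90218570-90218819 and the AF067061 window is chr13:120262845-120263094, both on the plus strand. Capitals mark TAATCC, or GGATTA where the copy lies on the opposite strand.
Zfp352: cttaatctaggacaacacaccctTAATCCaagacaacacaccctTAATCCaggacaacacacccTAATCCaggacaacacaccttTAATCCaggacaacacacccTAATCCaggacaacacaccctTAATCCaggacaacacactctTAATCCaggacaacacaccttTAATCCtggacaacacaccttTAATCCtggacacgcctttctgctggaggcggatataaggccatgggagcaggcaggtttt
AF067061: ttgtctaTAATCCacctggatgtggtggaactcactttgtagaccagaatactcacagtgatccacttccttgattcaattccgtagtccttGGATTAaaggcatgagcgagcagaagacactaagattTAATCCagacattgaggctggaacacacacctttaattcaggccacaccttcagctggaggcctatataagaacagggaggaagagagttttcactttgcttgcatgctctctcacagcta
The Zfp352 window is a row of short repeats with 9 copies of TAATCC on the plus strand, spaced 20 to 21 bases apart, and none on the minus strand. The AF067061 window has 2 copies on the plus strand, 122 bases apart, and 1 on the minus strand. Over 32536 promoters of the same length, 6.25% held at least 1 copy on either strand, 0.295% at least 2, and 0.0246% at least 3, and the 9 copies of Zfp352 were the most in any of them. Among the other 2C genes listed further on, 22 had a promoter in the table, of which 6 held at least 1 copy and 1 held at least 2. None of the 4 Zscan4 family promoters in the table held a copy. TATAA was found once in the Zfp352 window, 28 bases before the start, and 2 times in that of AF067061, where 1 of the copies overlaps a TAATCC. It was in 22.7% of all promoters on either strand. The longest run that both windows share is acacacctttaat, 13 bases, which 33 promoters (0.101%) contained. The letters searched were chosen after these sequences were read, so the counts describe the windows and do not show a bound site.

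After the filter on cells, 4596 positive-library cells remained, with 138303336 UMIs (counted molecules) and a median of 29554.5 UMIs per cell. The negative library held 3832 cells with 156406894 UMIs and a median of 39099.5. The libraries share 3 cell barcodes. GFP was at 205 CPM (UMIs of the gene per 1000000 UMIs of all genes) in the positive and 0.454 CPM in the negative library, and the 9 Zscan4 family genes together at 483 CPM (479 to 487) and 0.812 CPM (0.677 to 0.966), so the labels and the reporter go together. Pluripotency genes were abundant in both, with 15411 and 15008 CPM summed over 11 genes. Primitive endoderm markers, which belong to another cell type found in such cultures, summed to 789 and 326 CPM over 12 genes, trophoblast markers to 29.6 and 43.9 CPM over 7 genes, and fibroblast markers to 13.8 and 3.86 CPM over 7 genes. With 1 library per group no test was possible: the label also names each library as its own batch, so reporter, batch and library cannot be told apart in comparisons between them. Ranges in parentheses are exact 95% intervals that cover counting error only.

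Between the libraries, 4 of the 5 genes were almost confined to the reporter-positive side and E330034L11Rik was present on both. Tmem92 had 3474 UMIs on the positive and 6 on the negative side, or 25.1 CPM (24.3 to 26.0) and 0.0384 CPM (0.0141 to 0.0835), a ratio of 655 (301 to 1785). Zfp352 had 2066 UMIs and 1 UMI, or 14.9 CPM (14.3 to 15.6) and 0.00639 CPM (0.000162 to 0.0356), a ratio of 2336 with the wide interval of 419 to 92328 that a count of 1 gives. Both genes were thus detected in the negative library, but from no more than 6 molecules.

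AF067061 and Tdpoz3 had no UMI in the negative library. AF067061 had 3494 UMIs in the positive library, 25.3 CPM (24.4 to 26.1), at least 1317-fold higher when the negative library is set at the floor of 3 UMIs, while the exact interval of the ratio starts at 1071. Tdpoz3 had only 240 UMIs, 1.74 CPM (1.52 to 1.97), at least 90.5-fold higher against that floor, with an exact interval that starts at 73.0. Copies related to these genes were likewise confined to the positive library: AF067063 had 410 UMIs there and 0 in the negative library, and Tdpoz1, Tdpoz2 and Tdpoz4 had 23, 14 and 39 against 0. E330034L11Rik was the exception, with 648 and 469 UMIs, 4.69 CPM (4.33 to 5.06) and 2.999 CPM (2.73 to 3.28), a ratio of 1.56 (1.39 to 1.76). That difference was small: on the log2 scale with 1 CPM added it was 0.51, and 0.28 under the scalings TMM and median of ratios, where the median of all tested genes was -0.16 in place of 0.14.

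**Figure D1:**
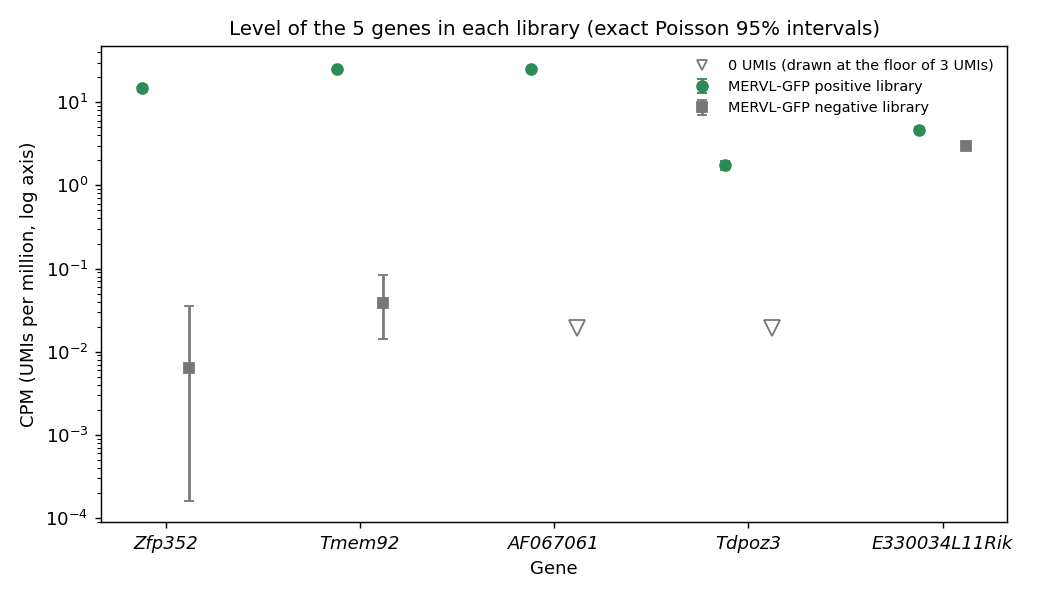
Level of each of the 5 genes in the MERVL-GFP positive library (green circles) and negative library (grey squares), in CPM on a log axis with exact Poisson 95% intervals; open triangles mark genes with 0 UMIs at the floor of 3 UMIs. Tmem92 stands at 25.1 against 0.0384 CPM, while E330034L11Rik stands at 4.69 against 2.999 CPM.

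A gene was called higher or lower when it had at least 10 CPM on either side, at least 50 UMIs in total and CPM + 1 at least 4 times that of the other side. Between the libraries, 241 of 8042 genes that met the first 2 conditions were higher in the positive library, 3.0%, and 1 was lower, 0.0124%. Of the 5 genes, 3 met the conditions (Zfp352, Tmem92 and AF067061) and all 3 were higher, while Tdpoz3 and E330034L11Rik were below 10 CPM in both libraries. The 3 genes reached 10 CPM only in the positive library and had been taken as markers of this state before, so their count is no independent evidence of a direction. Over all 5 genes the median log2 ratio of CPM + 1 was 3.99, beside 0.14 over all genes tested. Its size depends on the 1 CPM added: with 0.1 CPM in its place the log2 ratio went from 3.99 to 7.14 for Zfp352, from 4.65 to 7.51 for Tmem92, from 4.71 to 7.99 for AF067061, from 1.45 to 4.20 for Tdpoz3 and from 0.51 to 0.63 for E330034L11Rik. Of the 9 genes of the Zscan4 family 7 were higher, of which Zscan4d was the most abundant, at 123 against 0.467 CPM, and the other 2 were below 10 CPM. Of 39 other 2C genes 34 were in the table, of which 16 were higher and the rest did not meet the conditions. All of these genes, too, met them only through the positive library, so the counts describe which genes were abundant there. Over the 25 of the 34 with at least 50 UMIs the median was 4.41. Among the 16 were Gm21761 at 1173 against 0.30 CPM, Eif1ad8, an initiation factor relative, at 650 against 0.761 CPM, Gm20767 at 503 against 0.134 CPM and B020031M17Rik at 273 against 0.0575 CPM. Duxf3, the gene of the DUX transcription factor that switches MERVL on, had 355 against 3 UMIs, a ratio that rests on few molecules.

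To compare cells at the same depth, each cell was reduced at random to 10000 UMIs, which kept 4402 positive-library and 3824 negative-library cells. Tmem92 then had at least 1 UMI in 16.6% of positive-library cells (15.5 to 17.7) and in only 2 from the negative library, 0.0523% (0.00633 to 0.189). AF067061 was seen in 13.7% (12.7 to 14.7), Zfp352 in 8.43% (7.62 to 9.29) and Tdpoz3 in 1.86% (1.48 to 2.31) of positive-library cells. Each of the last 3 was seen in 0 of 3824 negative-library cells, where the floor of 3 counts is a share of 0.0785% and the upper end of the exact interval is 0.0964%. E330034L11Rik was seen in 4.52% (3.93 to 5.18) and 2.62% (2.13 to 3.17) of cells. Without this reduction its shares were 11.4% and 10.9%, since the negative-library cells were deeper, and those of Tmem92 were 29.3% and 0.13%.

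In the reporter-negative library the few molecules of the 4 genes other than E330034L11Rik were traced to their cells at full depth. Of the 3832 cells, 35 had a Zscan4 UMI, 56 a GFP UMI and 3745 neither. The only Zfp352 UMI was in a cell with Zscan4, and 4 of the 6 Tmem92 UMIs were in 3 cells with Zscan4, so most of this faint signal lay in the rare cells with another sign of the 2C-like state. AF067061 and Tdpoz3 had none. E330034L11Rik had 469 UMIs in 419 cells, 378 of them with 1 UMI and 411 with neither Zscan4 nor GFP, and at most 7 UMIs in a cell. These were 10.9% of the 3832 cells, where each of the other 4 genes was in at most 5 cells, and the part of free RNA in the counts of E330034L11Rik was not tested.

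Within the positive library, cells differed widely in Zscan4 and GFP, and the 5 genes were described against both. Cells were classed by the thinned UMIs of the Zscan4 family as 0 (1423 cells), 1 to 4 (1881), 5 to 19 (735) and 20 or more (363), using none of the 5 genes. The classes are ranges of a count and not cell types: 389 cells had 3 or 4 and 227 had 5 or 6 Zscan4 UMIs, either side of the threshold of 5. Depth fell along these classes, with median UMIs per cell of 33154, 31303, 25390 and 19514, so levels are given in CPM.

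Tmem92 had 4.73 CPM (4.14 to 5.39), 11.7 (10.8 to 12.6), 58.6 (55.3 to 62.1) and 168 (159 to 178) in cells with 0, 1 to 4, 5 to 19 and 20 or more Zscan4 UMIs. AF067061 had 4.57 CPM (3.98 to 5.21), 9.96 (9.19 to 10.8), 50.3 (47.2 to 53.5) and 207 (196 to 217) in the same order. Both were higher at each step. Zfp352 had 4.34 CPM (3.77 to 4.97), 10.1 (9.36 to 11), 38.7 (36.0 to 41.5) and 47.2 (42.4 to 52.3), levelling off in the last 2 classes. Tdpoz3 had 0.332 CPM (0.190 to 0.539), 0.903 (0.680 to 1.17), 5.0 (4.06 to 6.08) and 7.71 (5.85 to 9.96), from 16, 55, 100 and 58 UMIs. E330034L11Rik was flat, with 4.65 (4.06 to 5.30), 4.74 (4.21 to 5.32), 3.90 (3.08 to 4.86) and 5.05 CPM (3.57 to 6.93), intervals that all overlap.

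Set as cells with at least 5 against cells with 0 Zscan4 UMIs, the ratio was 20.4 (17.7 to 23.5) for AF067061, 18.7 (16.3 to 21.5) for Tmem92, 17.3 (10.3 to 31.0) for Tdpoz3 and 9.45 (8.15 to 11) for Zfp352. For E330034L11Rik it was 0.906 (0.718 to 1.14). In this comparison 291 of 8316 genes were higher, 3.5%, and 5 were lower, 0.0601%, and of the 5 genes the same 3 as between the libraries were higher, each at 10 CPM or more only in the cells with Zscan4. Of the 34 other 2C genes measured, 17 were higher and the rest did not meet the conditions, whether they differed or not. Among these, Pramel16 was at 8.42 against 0.353 CPM and Tcstv1 at 4.10 against 0.332 CPM, while Trim43a was at 4.97 against 4.21 CPM and Zfp750 at 1.82 against 2.22 CPM, 4 genes picked out after their values were seen. Over the 25 with at least 50 UMIs the median was 3.63 on the log2 scale. Pluripotency genes had a median of -0.93 with 0 of 11 past the ratio, and primitive endoderm markers a median of -0.59 with 0 of 9. Cells with 20 or more were also set against those with 5 to 19, where 28 of 8158 genes were higher, 0.343%. Of the same 3 genes, AF067061 was higher there, at a ratio of 4.11 (3.79 to 4.45), while Tmem92 was at 2.87 (2.65 to 3.11) and Zfp352 at 1.22 (1.07 to 1.39).

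By GFP transcripts the order of the genes changed. The classes were 0 (1679 cells), 1 to 2 (1350), 3 to 9 (1177) and 10 or more (196) thinned GFP UMIs, and 598 cells had 3 or 4. Zfp352 had 3.78 CPM (3.29 to 4.32), 10.7 (9.71 to 11.7), 28.3 (26.5 to 30.1) and 76.8 (69.1 to 85.1), rising to the top class. Tmem92 had 8.93, 21.2, 48.4 and 81.2 CPM and AF067061 9.26, 22.7, 44.4 and 93.7 CPM, a range from bottom to top several times smaller than along Zscan4. Tdpoz3 had 0.535, 1.64, 3.47 and 3.17 CPM, and E330034L11Rik 4.81, 5.16, 3.53 and 4.44 CPM.

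The ratio of cells with at least 3 to cells with 0 GFP UMIs was 9.11 (7.87 to 10.6) for Zfp352, 6.42 (4.29 to 9.90) for Tdpoz3, 5.89 (5.34 to 6.51) for Tmem92 and 5.47 (4.96 to 6.04) for AF067061. Of 8182 genes 212 were higher, 2.59%, including the same 3 of the 5 genes, each at 10 CPM or more only in the cells with GFP. E330034L11Rik was at 0.758 (0.612 to 0.935), on the lower side. Across the Zscan4 and GFP comparisons, which share cells, Zfp352 thus had nearly the same ratio by either measure at these thresholds. The ratios of Tmem92 and AF067061 by Zscan4 were several times those by GFP. With at least 10 GFP UMIs against 0 the log2 ratio of CPM + 1 of Zfp352 was 4.02, and with at least 20 Zscan4 UMIs against 0 it was 3.17. GFP and the summed Zscan4 family themselves, as log2(thinned UMIs + 1), had a Pearson r of 0.42 over the 4402 cells.

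**Figure D2:**
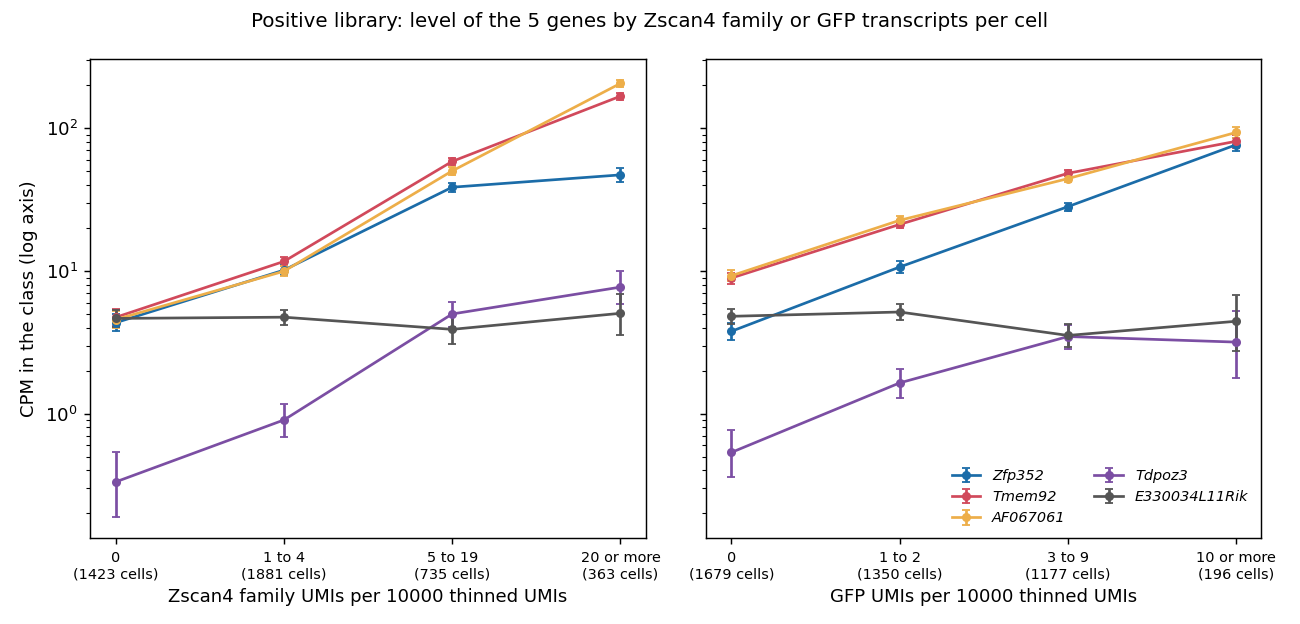
Level of the 5 genes in positive-library cells classed by thinned Zscan4 family UMIs (left) or GFP UMIs (right), in CPM on a log axis with exact Poisson 95% intervals; the number of cells is under each class. From the lowest to the highest Zscan4 class AF067061 goes from 4.57 to 207 CPM, while E330034L11Rik stays between 3.90 and 5.05 CPM.

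Zscan4 and GFP were then taken apart, since they overlap in part. In 198 cells with 0 Zscan4 and at least 3 GFP UMIs, against 779 cells with 0 of both, Zfp352 was at 14.6 (11.7 to 18.0) against 1.83 CPM (1.35 to 2.42), a ratio of 7.98 (5.58 to 11.6). Tmem92 was at 9.25 (7.01 to 12.0) against 2.84 CPM (2.24 to 3.55), a ratio of 3.26 (2.27 to 4.66), and AF067061 at 9.58 (7.29 to 12.4) against 3.17 CPM (2.54 to 3.92), a ratio of 3.02 (2.13 to 4.26). By CPM the ratio was thus higher for Zfp352 than for the other two. Its 90 UMIs lay in few cells, however, with 14 of the 198 having it at 10000 UMIs and up to 11 UMIs in one, so that its counting interval understates the error. By cells with a UMI Zfp352 went from 1.67% (0.891 to 2.84) to 7.07% (3.92 to 11.6), Tmem92 from 2.7% (1.68 to 4.09) to 11.1% (7.10 to 16.3) and AF067061 from 3.34% (2.19 to 4.85) to 8.08% (4.69 to 12.8). Here 103 of 8026 genes were higher, 1.28%, and Zfp352 was among them. It met the 10 CPM condition only through the cells with GFP. Tmem92 and AF067061 were below 10 CPM in both, and their log2 ratios of CPM + 1, 1.42 and 1.34, were also under the 2 that the rule needs, beside 2.46 for Zfp352. Tdpoz3 had 5 and 4 UMIs, and E330034L11Rik 3.73 (2.37 to 5.60) against 4.48 CPM (3.71 to 5.36).

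Cells with the reporter were next compared by Zscan4. In the 657 cells with at least 3 GFP and at least 5 Zscan4 UMIs, against the 198 cells with at least 3 GFP and 0 Zscan4, Tmem92 was at 101 (96.3 to 106) against 9.25 CPM, a ratio of 10.9 (8.40 to 14.5). AF067061 was at 99.9 (95 to 105) against 9.58 CPM, a ratio of 10.4 (8.04 to 13.8). Zfp352 was at 52.1 (48.5 to 55.8) against 14.6 CPM, a ratio of 3.56 (2.86 to 4.48). Tmem92 and AF067061 were among the 118 of 8092 genes higher here, 1.46%, and reached 10 CPM only in the cells with Zscan4. Tdpoz3 was at 6.45 against 0.812 CPM, a ratio of 7.95 with an interval of 3.29 to 25.0. Pluripotency genes had a median of -0.85 and primitive endoderm markers one of -0.41 in the same comparison, none past the ratio, and their part in it was not tested.

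Cells with Zscan4 and no GFP were fewer. In the 149 cells with at least 5 Zscan4 and 0 GFP UMIs the levels were 20.3 CPM (16.2 to 25.0) for Zfp352, 57.8 (50.8 to 65.5) for Tmem92, 74.0 (66.1 to 82.7) for AF067061 and 3.77 (2.16 to 6.13) for Tdpoz3. Against the cells with 0 of both, 256 of 8502 genes were higher, 3.01%, with Zfp352, Tmem92 and AF067061 among them, each at 10 CPM or more only in the cells with Zscan4, and 7 were lower, 0.0823%, with none of the 5. Among cells with at least 5 Zscan4 UMIs the differences by GFP were small. Between cells with at least 3 and with 0 GFP UMIs the ratio was 2.57 (2.05 to 3.25) for Zfp352, 1.75 (1.53 to 2.01) for Tmem92 and 1.35 (1.19 to 1.53) for AF067061. None of these 3 passed the ratio of 4, which 3 of 8237 genes did, 0.0364%. Of the 4 classes, Zfp352, Tmem92, AF067061 and Tdpoz3 were thus each lowest with neither measure and highest with both.

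**Figure D3:**
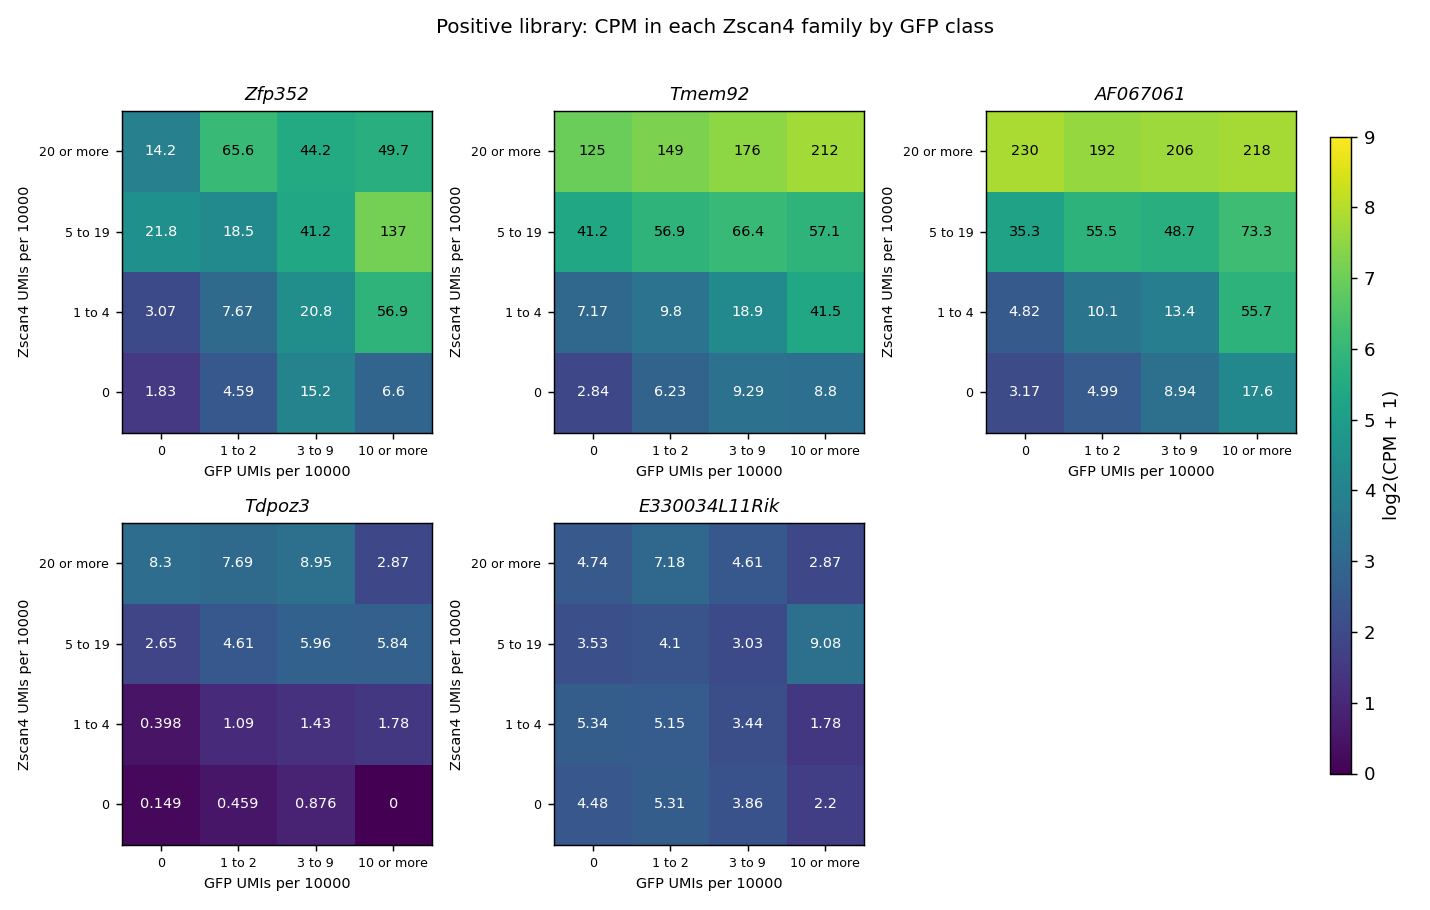
Level of each gene in the 16 classes of positive-library cells by Zscan4 family UMIs (rows) and GFP UMIs (columns); the number in a square is the CPM and the colour its log2(CPM + 1). AF067061 is at 230 CPM in the cells with 20 or more Zscan4 and 0 GFP UMIs and at 17.6 CPM in those with 0 Zscan4 and 10 or more GFP UMIs, and E330034L11Rik lies between 1.78 and 9.08 CPM over the 16 classes.

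The corners of this plot held few cells. In the 16 cells with 0 Zscan4 and 10 or more GFP UMIs Zfp352 was at 6.60 CPM from 3 UMIs, Tmem92 at 8.80 and AF067061 at 17.6 CPM. Zfp352 was highest, at 137 CPM, in the class with 5 to 19 Zscan4 and 10 or more GFP UMIs, beside 49.7 CPM with 20 or more Zscan4 UMIs and as much GFP. These classes were picked out after their values were seen.

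Levels in positive-library cells without Zscan4 and GFP were not 0, and were set against the negative library and against endoderm cells. In the 779 cells with 0 thinned UMIs of both, Tmem92 was at 2.84 CPM, against 0.0258 CPM in the 3793 such cells of the negative library, AF067061 at 3.17 CPM against 0 UMIs and Zfp352 at 1.83 against 0.00645 CPM. None of the 5 genes reached 10 CPM on either side, so none was among the 7844 tested, of which 53 were higher, 0.676%. A thinned count of 0 does not make a cell free of Zscan4 RNA: the family was at 42.1 CPM in the positive-library cells of this class and at 0.181 CPM in those of the negative library. As a share of the level in the whole positive library, these cells kept 12.2% for Zfp352, 11.3% for Tmem92, 12.6% for AF067061, 8.61% for Tdpoz3 (4 UMIs) and 11.1% for the other 2C genes summed. E330034L11Rik kept 95.6%, at 4.48 CPM against 3.0 CPM in the negative library, a ratio of 1.49 (1.21 to 1.83).

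Free RNA can give UMIs to cells that do not express a gene, and cells with markers of another type in the same library were read for comparison. Cells were called endoderm when they had at least 3 thinned UMIs of Gata6, Gata4, Sox17, Sox7, Pdgfra, Dab2, Cubn and Foxa2 together, which took 557 positive-library and 231 negative-library cells. Among positive-library cells with 0 Zscan4 and 0 GFP, 89 endoderm cells (median 34130 UMIs) were set against 541 with no endoderm UMI (median 34432). Tmem92 was in 2.25% (0.273 to 7.88) and 2.59% (1.42 to 4.30) of them and AF067061 in 3.37% (0.701 to 9.54) and 3.51% (2.13 to 5.43). Zfp352 was in 0 of 89 endoderm cells, which the interval allows to be up to 4.06%, and in 1.85% of the others (0.890 to 3.37). At full depth it was in 0 of the 89 and in 36 of the 541 cells, with 0 against 37 UMIs, and the upper end of the interval of the ratio was 0.641, below 1. Endoderm-called cells did not lack these genes, however: over all 557, Tmem92 was at 19.3 CPM (17.2 to 21.4) and in 14.5% of cells, AF067061 at 20.1 CPM (18.0 to 22.3) and in 12.9%, and Zfp352 at 15.3 CPM (13.5 to 17.3) and in 10.8%. In the 2922 cells with no endoderm UMI the same values were 23.3 CPM and 15.0% for Tmem92, 22.5 CPM and 12.8% for AF067061, and 12.0 CPM and 7.36% for Zfp352. They are therefore no baseline of cells without the genes, and the part of free RNA in these levels was not tested. In the 779 cells each of the 3 genes had at most 1 thinned UMI in a cell.

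Among all positive-library cells with 0 Zscan4 UMIs, 181 endoderm cells were set against 991 with no endoderm UMI. The ratio was 1.35 (0.921 to 1.93) for Tmem92, 1.17 (0.770 to 1.71) for AF067061 and 1.12 (0.731 to 1.67) for Zfp352, intervals that include 1. E330034L11Rik had ratios of 1.10 (0.573 to 1.95) in the positive library, without Zscan4 and GFP, and 0.804 (0.514 to 1.20) in the negative library. The latter was between 231 endoderm cells and 3247 with no endoderm UMI. None of the 5 genes reached 10 CPM in these comparisons.

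The genes were also described by where their molecules lay. The positive-library cells with at least 5 Zscan4 UMIs held 20.2% of all UMIs and 81.8% of those of the Zscan4 family. They held 75.6% of the UMIs of AF067061, 72.2% of Tmem92, 69.0% of Tdpoz3, 57.7% of Zfp352 and 18.4% of E330034L11Rik. The cells with at least 3 GFP UMIs held 27.3% of all UMIs and 71.0% of those of GFP, and 65.6% of Zfp352, 58.0% of Tmem92, 55.9% of Tdpoz3, 55.7% of AF067061 and 21.6% of E330034L11Rik. Since the GFP cells held more of all UMIs, these shares are not compared between the cell sets: in CPM, Zfp352 was at 41.0 in the Zscan4 cells and 34.4 in the GFP cells. E330034L11Rik was divided close to the UMIs of all genes in the Zscan4 cells and in the cells with neither, which held 19.1% of its UMIs and 19.6% of all UMIs. In the GFP cells its share was lower, 21.6% against 27.3%.

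In cells with at least 5 Zscan4 UMIs, Zfp352, Tmem92 and AF067061 were each found in fewer cells than an even spread of their UMIs would give, in some of them at high counts. At 10000 UMIs per cell, 42.7% (39.8 to 45.7) of these 1098 cells had Tmem92, 35.7% (32.9 to 38.6) AF067061, 17.8% (15.5 to 20.2) Zfp352 and 5.46% (4.20 to 6.98) Tdpoz3. At full depth Tmem92 was in 660 of them, 60.1%, AF067061 in 547, 49.8%, Zfp352 in 280, 25.5%, and Tdpoz3 in 9.11%. If the same thinned UMIs had been spread evenly over the cells, 65.7% would have had Tmem92, 68.9% AF067061, 41.6% Zfp352 and 6.60% Tdpoz3, the last of which lies within the interval of the measured share. The variance of the thinned UMIs of Zfp352 and AF067061 was 7.21 and 10.2 times the mean, with up to 25 and 50 of 10000 UMIs in a cell, while that of Tmem92 was 4.50 times, that of Tdpoz3 1.60 times and that of E330034L11Rik 1.11 times the mean. Over all positive-library cells at full depth, the 1% with the most UMIs of a gene held 34.9% of the UMIs of Zfp352, 36.1% of AF067061, 22.9% of Tmem92 and 20.2% of E330034L11Rik. For Tdpoz3, with 240 UMIs in all, it was 51.2%. Because UMIs were clustered in cells, the counting intervals of CPM understate the error.

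**Figure D4:**
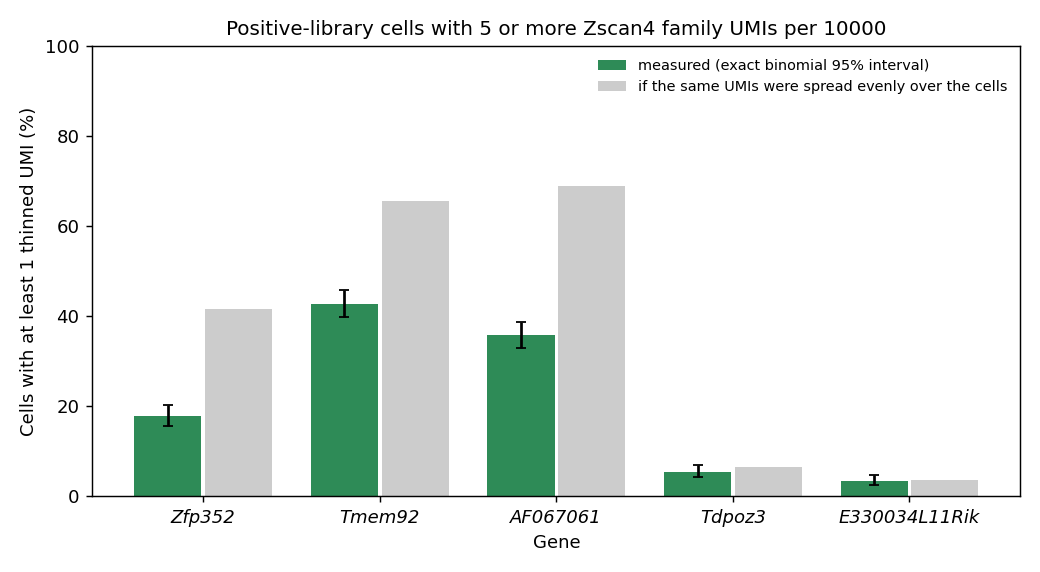
Share of the 1098 positive-library cells with at least 5 Zscan4 family UMIs that had at least 1 thinned UMI of each gene (green, exact binomial 95% intervals), beside the share if the same UMIs were spread evenly over the cells (grey). Zfp352 was seen in 17.8% of cells in place of 41.6%, while E330034L11Rik was seen in 3.46% in place of 3.67%.

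The genes were found together to different degrees in those 1098 cells. AF067061 was in 56.9% (49.7 to 64.0) of cells with Zfp352 and in 31.1% of cells without it. Tmem92 was in 56.1% (51.1 to 61.1) of cells with AF067061 and in 35.3% of those without. Both genes also rose with Zscan4 within the 1098 cells. From 5 to 19 to 20 or more Zscan4 UMIs, Tmem92 went from 33.7% to 60.9% of cells and AF067061 from 27.1% to 53.2%. Pairs were not compared within those classes. Tdpoz3 was in 60 of the cells, of which 34 had Tmem92, 56.7% (43.2 to 69.4), against 41.9% of the rest. E330034L11Rik was in 38 of the cells, and AF067061 in 26.3% (13.4 to 43.1) of them against 36.0% of the rest. Tmem92 went the other way, in 47.4% (31.0 to 64.2) of them against 42.5% of the rest. Both intervals include the value of the rest.

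Counting the 4 genes other than E330034L11Rik, 28.8% of positive-library cells had at least 1 of them and 0.0523% of negative-library cells, 2 of 3824, both with 1. In the positive library the share with none was 89.2% among cells with 0 Zscan4 UMIs, 77.6% with 1 to 4, 46.0% with 5 to 19 and 17.9% with 20 or more. At least 2 of them were found in 0.984%, 3.62%, 21.9% and 47.1% of cells of those classes. All 4 together were found in 6 cells, of which 3 had 20 or more Zscan4 UMIs and 3 had 5 to 19. Conversely, cells with Tdpoz3 had a median of 11.5 Zscan4 and 3.5 GFP UMIs, cells with Tmem92 or AF067061 9 and 3, cells with Zfp352 5 and 4, and cells with E330034L11Rik 1 and 1, the same as all 4402 cells.

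The make-up of the UMIs of these 4 genes also shifted. Zfp352 made up 31.1% (27.6 to 34.7) of their UMIs in cells with 0 Zscan4 UMIs and 10.98% (9.92 to 12.1) in cells with 20 or more. AF067061 went from 32.7% (29.2 to 36.4) to 48.1% (46.4 to 49.8), while Tmem92 went from 33.9% (30.3 to 37.6) to 39.1% (37.4 to 40.8). By cells with a thinned UMI, AF067061 was not ahead of Tmem92 in either class. With 0 Zscan4 UMIs they were in 4.15% and 4.36% of cells, and with 20 or more in 53.2% and 60.9%. UMIs were clustered in cells, so the intervals of all UMI shares given here understate the error. In cells with GFP and no Zscan4, Zfp352 made up 42.7% (35.9 to 49.6), AF067061 28.0% (22.0 to 34.5) and Tmem92 27.0% (21.1 to 33.5), from 211 UMIs. In cells with Zscan4 and no GFP, AF067061 made up 47.5% (43.6 to 51.4), Tmem92 37.1% (33.4 to 40.9) and Zfp352 13.0% (10.5 to 15.8). By UMIs Zfp352 thus had the largest share of the 4 in the first of these classes and a smaller one than AF067061 and Tmem92 in the second. By cells the order in the first class differed: 7.07% of its 198 cells had Zfp352, against 11.1% with Tmem92 and 8.08% with AF067061, and at full depth 14.1% against 22.7% and 21.2%. Gene length was not used, so these shares are compared between classes and not as levels of the genes.

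**Figure D5:**
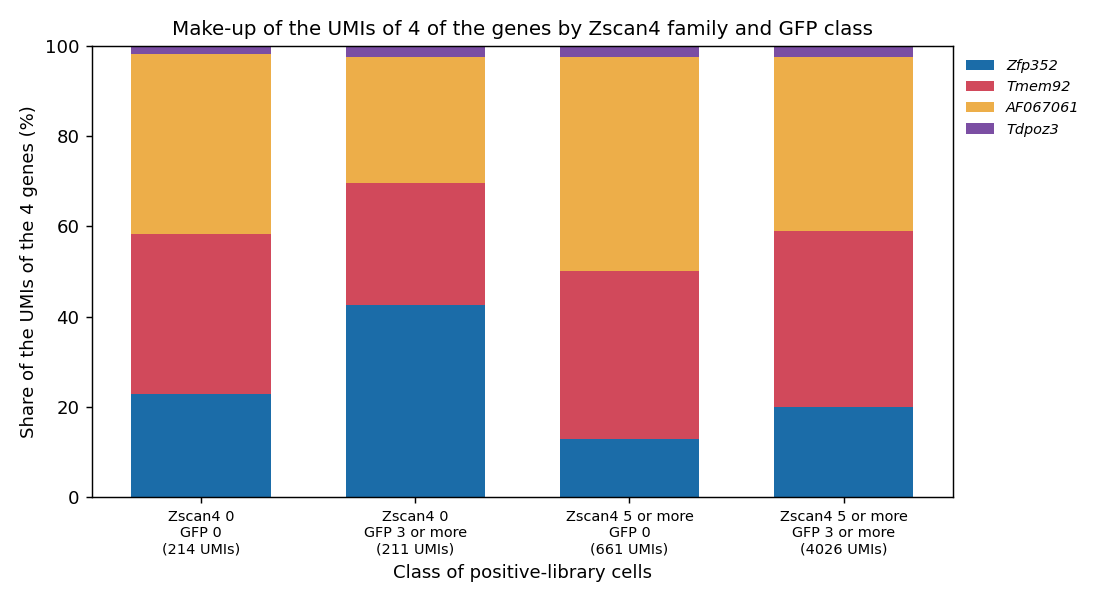
Make-up of the UMIs of Zfp352, Tmem92, AF067061 and Tdpoz3 in 4 classes of positive-library cells by Zscan4 family and GFP UMIs, in percent of the summed UMIs given under each bar. Zfp352 takes 42.7% in cells with GFP and no Zscan4 and 13.0% in cells with Zscan4 and no GFP.

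The genes most like each of the 5 over positive-library cells were taken by Pearson r of log2(thinned UMIs + 1) among 14238 genes seen in at least 1% of the 4402 cells, which all share 1 library and 1 thinned depth. Zfp352 was most like Gm21731 (0.48), Gm21762 (0.47) and Sp110 (0.45), the last a nuclear body protein. Its r with the summed Zscan4 family was 0.20 and with GFP 0.23. Tmem92 was most like Gm6494 (0.54), Gm11546 (0.53) and Gm21761 (0.51), and AF067061 most like Gm21818 (0.59), Gm21761 (0.56) and Gm20767 (0.52). For these 2 genes r with Zscan4 was 0.48 and 0.44 and with GFP 0.24 for each. Among the 5 genes themselves the largest r was 0.41, between Tmem92 and AF067061, and that between Zfp352 and Tmem92 was 0.12. Tdpoz3, at low counts, reached 0.24 with Zscan4-ps1, 0.20 with Gm6494 and 0.20 with Pramel18. For E330034L11Rik the 3 largest r rounded to 0.07 in the positive library (Usp27x, Ephx4 and Ifitm7) and in the negative library (Slc36a1, Bcl6 and Stxbp6), values too weak in sparse counts to name a likeness.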

How the data were processed

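For each library the authors deposited a matrix of whole-number counts over 55415 features, 55414 Ensembl mouse genes and GFP. Cell barcodes of 16 bases are the reason for reading these counts as UMIs, although the labels do not state molecule counting and their extraction text describes a bulk kit. The submitters' processing notes name FastQC 0.11.2, Trim Galore 0.6.4, STAR 2.7.6a and the mm10 build, and the counter, annotation and cell calling are not given in the sources used here. Of the feature IDs 52081 were in GENCODE M21 and 3333 were not. The 5 genes and all gene lists were chosen with earlier results of these data known, and 1 further gene of the set is not reported here.

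Cells were kept with at least 1000 UMIs, 500 genes and at most 20% mitochondrial UMIs. UMIs were summed per library or class and scaled to CPM over all genes, with exact Poisson intervals. Ratios have exact conditional intervals and shares Clopper-Pearson intervals, all at 95%, and cover counting error only, since cells of 1 library share their source and PCR and capture errors are not in them. Genes at 0 UMIs were set against a floor of 3 UMIs. Shares and classes used cells reduced at random, without replacement, to 10000 UMIs. Shallower cells, 194 positive and 8 negative, were left out. Doublets were not called, and an alternative leaves out cells above 2 times the median UMIs. No test was possible for single libraries, and the size rule (10 CPM, 50 UMIs, ratio of CPM + 1 of at least 4) describes these libraries. Genes named beside the 5 are the Zscan4 family and GFP, the 3 most like each gene, and up to 4 of each list by UMIs. Duxf3, AF067063, the Tdpoz copies, Pramel16, Tcstv1, Trim43a and Zfp750 were added after their values were seen, for their roles, as related genes or as examples. Of the lists, 8 members of the other 2C genes were found by an older symbol. On simulated counts for the comparison of the libraries, 200 of 55415 genes were changed and the size rule recovered 100% of them with 0 false calls. The changed genes all averaged well above 10 CPM before the change, were changed by more than 4 times and had counting noise only. The outcome therefore checks the arithmetic of the rule and does not show how it performs for the 5 genes, which were less abundant and clustered in cells. Alternatives changed the cell filter, scaling, pseudocount, thinning and thresholds. TMM factors came from edgeR 4.0.16 in R 4.3.3, and the rest from Python 3.11.15 with scipy 1.17.1, numpy 2.4.6, matplotlib 3.10.9 and pandas 2.3.3.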

Additional observations from a re-analysis of the deposited data

How the results depend on the processing

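The genes past the size rule between the libraries (Zfp352, Tmem92 and AF067061) numbered 3 under each of the 9 alternatives of cells, scaling and pseudocount and under both other size rules. With a ratio of at least 2 the genes past the rule rose from 241 to 564 higher and from 1 to 80 lower, and with at least 1 CPM 346 were higher and 2 lower. By Zscan4, setting at least 1 UMI against 0 left 2 of the 3, with a log2 ratio of 1.96 for Zfp352, just under 2. By GFP, setting at least 1 against 0 left 1, with 1.89 for Tmem92 and 1.84 for AF067061. The share of positive-library cells with any of the 4 genes other than E330034L11Rik was 19.9% when thinned to 5000 UMIs and 47.6% without thinning, in place of 28.8%, and the negative-library share without thinning was 0.157% in place of 0.0523%. Fewer or more UMIs per cell set these shares by construction. With 0.1 CPM added in place of 1 the log2 ratios between the libraries were 7.14 for Zfp352, 7.51 for Tmem92, 7.99 for AF067061 and 4.20 for Tdpoz3, in place of 3.99, 4.65, 4.71 and 1.45. By Zscan4 that of Tdpoz3 ran from 1.36 to 2.71 over the alternatives. The log2 ratio of E330034L11Rik between the libraries ran from 0.28 to 0.63 over the alternatives, and its ratio by Zscan4 from -0.12 to 0.10, on both sides of 0. TMM and median of ratios in the comparisons by Zscan4 and by GFP, and leaving out endoderm cells in that by Zscan4, were chosen after seeing the data. No paired analysis was possible because the labels give no replicate numbers and the groups hold a single library each. Depth limits Tdpoz3 and the negative-library values of Zfp352 and Tmem92, which rest on 6 UMIs or fewer.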
